A study of Homo sapiens with 6 samples.

Results

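The V2084D-only regions are 279 stretches of open chromatin that were called in both libraries of Huh7 cells carrying ARID1A V2084D and in no library of V2084D cells with a STUB1 hairpin or of wild-type (WT) ARID1A cells. They were chosen by the peak calls themselves: peaks of all 6 lists on chromosomes 1 to 22 and X were merged wherever they overlapped by 1 bp, and the pattern of libraries with a peak was read from each of the 28879 merged regions. The 279 are 0.966% of all regions and 3.82% of the 7307 regions with a peak in both V2084D libraries. Since presence and absence of peaks selected them, their peak strengths in V2084D cells and their lack of peaks elsewhere are descriptions and carry no test.

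Chromatin was profiled by ATAC-seq, in which a transposase cuts and tags accessible DNA, in Huh7 cells, a human hepatocellular carcinoma line. The V2084D group (2 libraries) was ARID1A knockout with Flag-tagged ARID1A V2084D, a missense form, overexpressed from a lentivirus. The V2084D shSTUB1 group (2 libraries) had the same knockout and the same V2084D transgene plus a STUB1 knockdown, and the WT group (2 libraries) had the knockout and Flag-tagged WT ARID1A. All 3 groups therefore lack the endogenous ARID1A and overexpress a tagged copy. The titles name no control hairpin, so lower STUB1 and the presence of any hairpin cannot be told apart. Nothing in the labels says that the 2 libraries of a group came from separate cultures, nor whether the cells were 1 clone.

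ARID1A is a subunit of the canonical BAF form of the SWI/SNF complex, which slides and evicts nucleosomes at promoters and enhancers and is often mutated in liver cancer. STUB1, also called CHIP, is a ubiquitin ligase that binds the chaperones HSP70 and HSP90 through its TPR domain and marks their misfolded clients for the proteasome. ATAC-seq peaks mark nucleosome-depleted DNA, most steadily at active promoters and more variably at distal elements.

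The promoters that carried V2084D-only regions are shown here, because they place these regions beside the sequence of a gene's start. They overlapped 95 promoter windows of protein-coding genes, each reaching from 250 bases before to 50 after an annotated start, and 73 of 268 regions (27.2%, 95% exact interval 22% to 33%) overlapped 1 or more windows by at least 1 bp. Over all merged regions the share was 30.8%. Printed are the 250 bases before the annotated start, 5′ to 3′ on the gene's strand, from RefSeq on GRCh38.p14. They are given for 5 of the regions with the strongest peaks. CCN2 and F3 were added for their place among YAP and TEAD targets. The windows of SPOCK3, whose region ranked above that of CIAPIN1, are not printed and held none of the motifs searched. A printed stretch is not the called region itself. The region covered 300 of the 300 window bases at BCL2L12 and CALD1, 271 at KDELR1 and 293 at CIAPIN1. At CCN2 it covered 298, at MINDY3 163 and at F3 91. Both AP-1 matches and every GC box of F3 lie outside its region, and only the TATA box lies inside. The CCAAT box of MINDY3 farther from the start also lies outside the region. Capitals mark matches, on either strand, to the GC box of SP1 and KLF factors (GGGCGG), the ETS motif (CCGGAAG), the CCAAT box (CCAAT), the TATA box (TATAAA) and the AP-1 motif (TGANTCA).
BCL2L12 promoter, chr19:49665683-49665932 (plus strand): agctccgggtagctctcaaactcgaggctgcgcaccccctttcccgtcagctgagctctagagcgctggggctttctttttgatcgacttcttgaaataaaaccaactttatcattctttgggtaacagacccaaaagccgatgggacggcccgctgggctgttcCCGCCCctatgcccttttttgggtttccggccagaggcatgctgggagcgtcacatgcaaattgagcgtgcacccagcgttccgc
KDELR1 promoter, chr19:48391552-48391801 (minus strand): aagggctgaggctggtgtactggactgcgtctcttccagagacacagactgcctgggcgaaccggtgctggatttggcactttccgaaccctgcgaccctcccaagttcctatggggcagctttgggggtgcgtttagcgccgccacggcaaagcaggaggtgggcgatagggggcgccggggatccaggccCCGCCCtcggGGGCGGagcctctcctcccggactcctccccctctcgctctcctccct
CIAPIN1 promoter, chr16:57447386-57447635 (minus strand): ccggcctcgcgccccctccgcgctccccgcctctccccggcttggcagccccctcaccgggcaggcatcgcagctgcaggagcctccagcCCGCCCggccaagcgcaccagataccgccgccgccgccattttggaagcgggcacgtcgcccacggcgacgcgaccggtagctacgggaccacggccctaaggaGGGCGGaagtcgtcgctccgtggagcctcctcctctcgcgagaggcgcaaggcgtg
CALD1 promoter, chr7:134891208-134891457 (plus strand): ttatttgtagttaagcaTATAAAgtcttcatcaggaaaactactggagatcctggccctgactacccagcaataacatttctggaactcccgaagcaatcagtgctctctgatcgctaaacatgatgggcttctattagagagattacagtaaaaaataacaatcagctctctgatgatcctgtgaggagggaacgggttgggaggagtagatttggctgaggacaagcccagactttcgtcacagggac
MINDY3 promoter, chr10:15860508-15860757 (minus strand): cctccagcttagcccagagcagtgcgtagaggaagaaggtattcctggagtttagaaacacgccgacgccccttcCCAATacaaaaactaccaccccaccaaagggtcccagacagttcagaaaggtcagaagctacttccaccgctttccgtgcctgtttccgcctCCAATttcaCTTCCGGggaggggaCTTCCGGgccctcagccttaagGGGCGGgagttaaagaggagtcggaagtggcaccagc
CCN2 promoter, chr6:131951373-131951622 (minus strand): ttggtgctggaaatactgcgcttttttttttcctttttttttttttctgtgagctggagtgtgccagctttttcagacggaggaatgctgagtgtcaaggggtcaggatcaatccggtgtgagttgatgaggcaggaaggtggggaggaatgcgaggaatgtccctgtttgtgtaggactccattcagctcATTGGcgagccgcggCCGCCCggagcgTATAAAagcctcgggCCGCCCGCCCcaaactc
F3 promoter, chr1:94541760-94542009 (minus strand): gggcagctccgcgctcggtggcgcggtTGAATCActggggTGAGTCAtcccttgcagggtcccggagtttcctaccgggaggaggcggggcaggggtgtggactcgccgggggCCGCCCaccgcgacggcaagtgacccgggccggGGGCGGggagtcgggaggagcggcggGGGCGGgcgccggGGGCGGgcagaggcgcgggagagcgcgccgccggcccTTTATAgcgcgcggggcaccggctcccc

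The other 11 regions lie on chromosome 8, for which no promoter window was used here. Motifs and GC content of a window were read from its 250 bases before the start, not from the 50 after it. A GC box was present in 67 of the 95 member windows (70.5%), against 71.4% of the windows at regions with both V2084D peaks and 53.7% of all 22131 protein-coding windows. The CCAAT box was in 23 windows (24.2%), against 39.4% of the windows at both-V2084D regions and 32.7% of all windows. ETS motifs were in 15 windows (15.8%, against 19.5% and 10.7% in the same order), and AP-1 motifs in 6 (6.32%, against 2.61% and 5.35%). The YY1 motif (AAGATGGCG) was in 3 windows (3.16%, against 1.32% and 0.75%), FOXA (TGTTTAC) in 3 (3.16%, against 1.7% and 2.45%) and CRE (TGACGTCA) in 3 (3.16%, against 3.3% and 2.02%). The NRF1 core (CGCATGCG) was in 1 (1.05%, against 4.57% and 2.18%), the E-box (CACGTG) in 7 (7.37%, against 9.29% and 7.37%) and the TATA box in 6 (6.32%, against 3.41% and 9%). No member window held the letters searched for C/EBP (TTGCGCAA), HNF4 (CAAAGTCCA), TEAD (ACATTCCA) or SMAD factors (GTCTAGAC). Of all windows, 0.185%, 0.307%, 0.682% and 0.208% held them in that order. Each search matched a single exact string, so shorter or variant sites were not counted. That the member windows lack sites for these factors is therefore not read from it. Median GC content was 66.8% in the member windows, 65.2% at both-V2084D regions and 62% over all windows. Adjoining windows of 1 gene share bases and some GC boxes overlap one another, so these are descriptions of the printed letters and not counts of bound sites.

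The 6 libraries differed in how much was called, which bears on every absence below. V2084D replicates 1 and 2 had 9231 and 30768 summits, V2084D shSTUB1 replicates 1 and 2 had 21728 and 15326, and WT replicates 1 and 2 had 10441 and 7401. Depth relative to the shallowest library, recovered from the background behind the peaks, was 1.17 and 1.70 in the V2084D libraries, 1.49 and 1.23 in V2084D shSTUB1, and 1.01 and 1 in WT. V2084D replicate 2 stands apart as the longest list and the deepest library. The V2084D lists shared 31.9% of their combined regions, fewer than replicate 1 shared with WT replicate 1 (44.4%) or replicate 2 with V2084D shSTUB1 replicate 1 (50%). The part of depth in the V2084D-only set was not tested, and a missing peak says only that none was called at that depth. Of 14 hepatocyte and hepatocellular marker genes, ALB, APOB, TTR, SERPINA1, AFP, HNF4A and FOXA2 were among those that had no peak within 1000 bp of their start or end in any library. V2084D libraries had a gene-end peak at 1 and 6 of the 14, V2084D shSTUB1 at 2 and 1, and WT at 1 and 1. Leukocyte markers had gene-end peaks at 0 to 2 of 5 genes, endothelial markers at 0 of 4, and COL1A1 was the only one of 5 fibroblast and stellate markers, in all 6 libraries. No V2084D-only region lay at a marker gene, at ARID1A or at STUB1. STUB1 had no merged region from any library and ARID1A had 3, so nothing is read from these absences.

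With 6 libraries there are 15 pairs, and each can have regions private to it. The V2084D pair had 279 and the V2084D shSTUB1 pair also had 279, whereas the WT pair had 19. Mixed pairs reached higher numbers: V2084D replicate 2 shared 2126 private regions with V2084D shSTUB1 replicate 1, 807 with V2084D shSTUB1 replicate 2 and 306 with WT replicate 1. V2084D replicate 1 shared 93 and 37 with the shSTUB1 libraries and 18 and 15 with the WT libraries. The V2084D pair was thus not the most numerous, and 5 of the 15 pairs had 279 or more. Any split of 6 libraries into 2 and 4 has 15 forms, so a one-sided exact permutation test cannot go below p = 0.0667, and none was run.

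**Figure D1:**
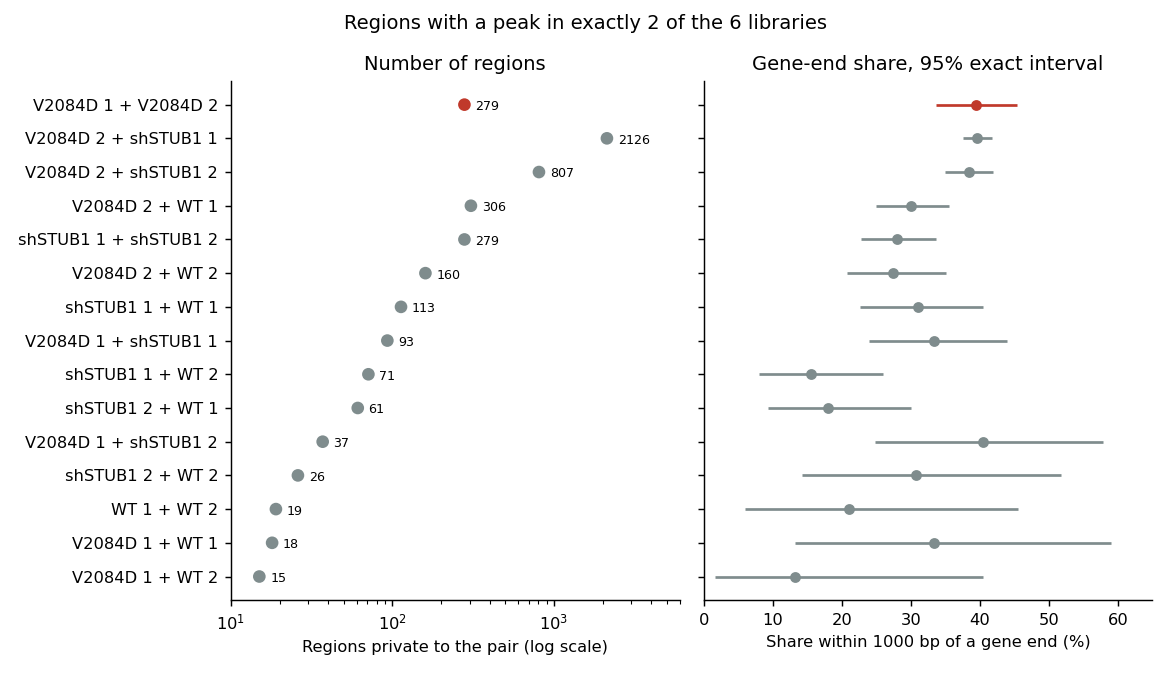
For each of the 15 library pairs, the left panel plots the number of regions with a peak in exactly those 2 libraries (log axis) and the right panel the share at a gene end (%), with 95% exact intervals that cover counting error only. The V2084D pair (red, 279 regions, 39.4%) lies near the pairs of V2084D replicate 2 with each shSTUB1 library (39.6% and 38.4%) and above the shSTUB1 pair (28%).

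Of the 279 regions, 110 (39.4%, interval 33.7% to 45.4%) lay at a gene end, meaning that the region came within 1000 bp of the start or end of a protein-coding gene. A further 79 (28.3%) lay deeper inside a gene, 58 (20.8%) within 50 kb of one and 32 (11.5%) farther away. Over all merged regions these shares were 41.8%, 28.1%, 17.6% and 12.5%, close to those of the V2084D-only regions. Over regions with both V2084D peaks they were 69.7%, 14.3%, 9.85% and 6.16%. The gene-end share was 28% (22.8% to 33.6%) in the V2084D shSTUB1 pair and 21.1% in the WT pair. It was 39.6% and 38.4% in the pairs that V2084D replicate 2 formed with the shSTUB1 libraries, and across all 15 pairs it ran between 13.3% and 40.5%. These intervals treat regions as independent and say nothing of the spread between libraries, so no difference between the pairs is called from them. Overlap with a promoter window was 27.2% in the V2084D pair, 15.8% in the shSTUB1 pair and 6.25% in the WT pair, against 25.8% and 25.1% in those mixed pairs. This overlap was 30.8% over all regions and 63.2% over regions with both V2084D peaks. Of the 268 regions off chromosome 8, 83 (31.0%) lay near a gene's start, 6 near its other end and 15 at a gene end whose strand was not known. In the shSTUB1 pair these were 58 of 266 (21.8%), 2 and 11. The share near a start was 35% over all regions and 60.9% over regions with both V2084D peaks. It was 31.4% and 29.9% in the pairs of V2084D replicate 2 with shSTUB1 replicates 1 and 2.

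The V2084D-only regions are the weak end of a gradient. As the number of other libraries with a peak went through 0, 1, 2, 3 and 4, regions with both V2084D peaks numbered 279, 602, 1201, 1956 and 3269. Their gene-end share was 39.4%, 53.7%, 65.6%, 69.6% and 76.8% in that order. Median region width was 401, 566.5, 678, 778 and 903 bp. The median fold over local background, the authors' peak height, was 4.62, 5.0, 5.19, 5.48 and 5.81 in V2084D replicate 1 and 4.91, 5.54, 6.17, 6.9 and 7.66 in replicate 2. Each of these measures was lowest at 0 other libraries and moved one way along the series. A merged region spans the peaks of every library that has one, so its width tends to grow with their number by construction. Wider regions also come within 1000 bp of a gene end more readily. The part of width in the gene-end series was not tested. The groups are formed by peaks that passed a calling threshold, which stronger sites pass more readily in any library. The fold series is therefore a description, and the part of the threshold in it was not tested. Of the 602 regions with 1 other library, 409 had their extra peak in V2084D shSTUB1 replicate 1, 142 in V2084D shSTUB1 replicate 2, 26 in WT replicate 1 and 25 in WT replicate 2.

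**Figure D2:**
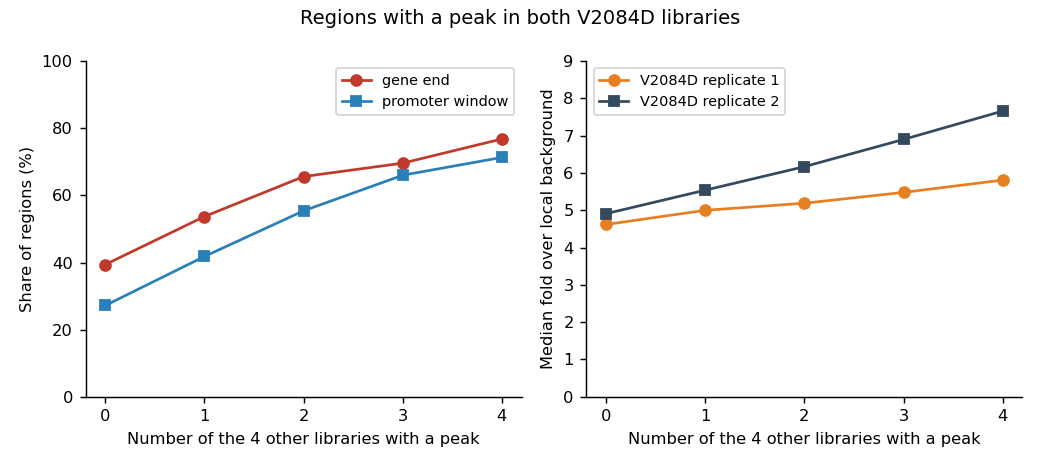
For regions with a peak in both V2084D libraries, the left panel plots the share at a gene end or overlapping a promoter window (%) and the right panel the median fold over local background in each V2084D library, both by how many of the 4 other libraries also had a peak. The V2084D-only regions, at 0, have the lowest value of each curve.

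Summit strength was modest in both V2084D lists. In replicate 1 the fold ran between 3.04 and 7.03 with a median of 4.62, and the summits rested on 3 to 33 reads with a median of 6. In replicate 2 the fold ran between 1.87 and 9.09 with a median of 4.91, on 3 to 39 reads with a median of 8. HAUS7, an augmin subunit of the mitotic spindle, held the highest fold of replicate 2, 9.09 on 17 reads, with 4.38 on 6 reads in replicate 1. The region nearest FCGR2A, an Fc receptor gene 39792 bp away, had the lowest fold in both libraries, 3.04 and 1.87, on the most reads, 33 and 39; both regions were named after their values were seen. Only 21 regions had 10 or more reads at the summit in both libraries, and 169 had fewer than 10 in both. A −log10 q of 5 or more was reached by 19 regions in replicate 1, by 91 in replicate 2 and by 11 in both. Of these 11, 9 lay at or inside BCL2L12 and IRF3, KDELR1, ITPRIPL1, ANKRD50, STYK1, SPOCK3, RPS2, FGD3 and TBC1D14. The other 2 lay 6843 bp from DNAH14 and 61969 bp from LIMS3, the last named after its values were seen.

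**Figure D3:**
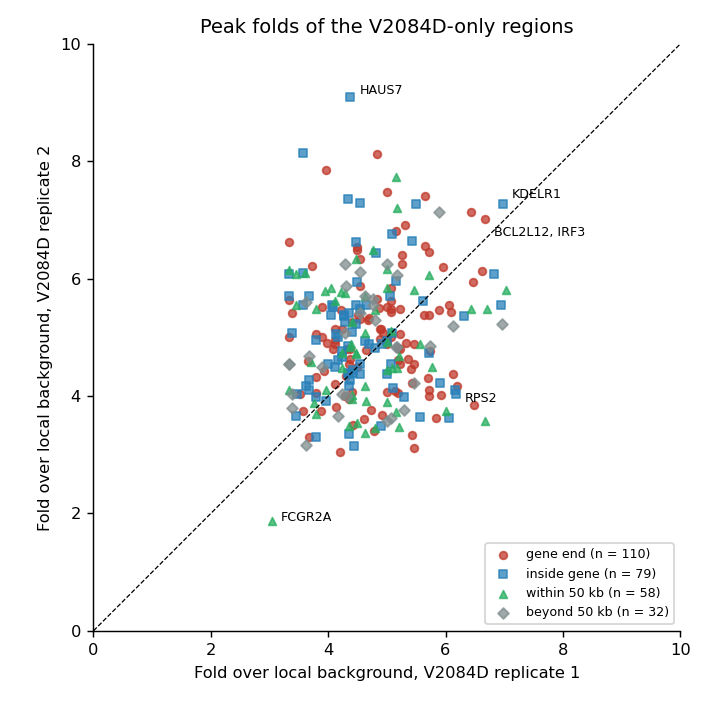
Each point is 1 of the 279 V2084D-only regions, placed by its fold over local background in V2084D replicate 1 (x axis) and replicate 2 (y axis) and marked by location; the dashed line is equality. Replicate 1 had the higher fold at 110 regions, and folds of all 4 location classes overlap.

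Ranked within each list by −log10 q, the V2084D-only regions sat below the middle, at a median percentile of 23.2 in replicate 1 and 32.4 in replicate 2. Just 23 were above the 50th percentile in both lists and 161 were below it in both. Regions in all 6 libraries had medians of 66.2 and 89.7. Regions that replicate 1 shared privately with a shSTUB1 library also had a median of 23.2, and those it shared with the WT libraries had 21.3 and 18.5. For replicate 2 the mixed pairs had 37.2 and 35.3 with shSTUB1 libraries and 34 and 30.7 with WT libraries. Peaks called in 1 V2084D library alone, 451 in replicate 1 and 7060 in replicate 2, had medians of 19.3 and 20.5. In both lists the V2084D-only regions thus ranked among the other private pairs and well under the regions common to all libraries.

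**Figure D4:**
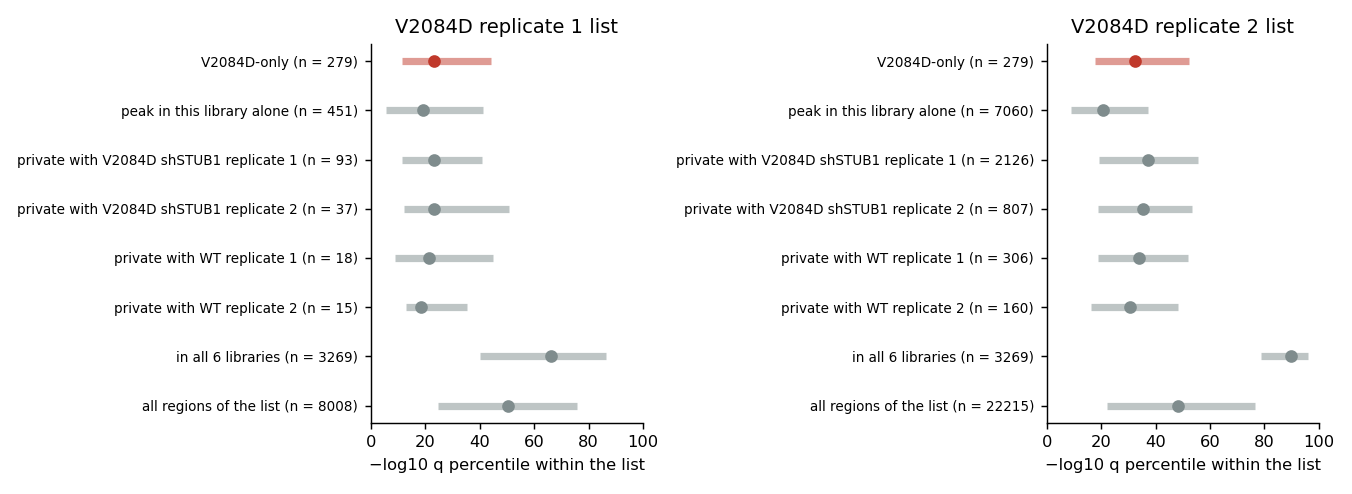
Percentile of −log10 q within the V2084D replicate 1 list (left) and replicate 2 list (right); points are medians and bars run from the lower to the upper quartile. The V2084D-only regions (red, medians 23.2 and 32.4) overlap the regions private to other pairs and have lower medians than those in all 6 libraries (66.2 and 89.7).

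The strongest summits of the 2 V2084D libraries in a V2084D-only region lay 1 to 504 bp apart with a median of 90 bp. They were within 100 bp of each other at 145 regions and over 200 bp apart at 61. Regions ran from 200 to 1117 bp in width, and the widest lay at the start of DSC2, a desmosomal cadherin (1117 bp, summits 437 bp apart), at CPVL, a carboxypeptidase (911 bp, 419 bp apart), and 67076 bp from the uncharacterised LOC124903671 (908 bp, 28 bp apart). In the DSC2 and CPVL regions the strongest summits of the 2 libraries lay at different points of a wide stretch. At LOC124903671 they lay at nearly the same one. DSC2 had 2 summits in V2084D replicate 2 and met the rule with windows of 200 bp at summits. Its weaker replicate 2 summit thus lay within 200 bp of the replicate 1 summit.

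At the top of the ranking stood a region shared by BCL2L12, a BCL2-family relative, and IRF3, the transcription factor that turns on type I interferon (chr19:49665509-49666161). Its fold was 6.67 in V2084D replicate 1 and 7.01 in replicate 2, on 13 and 22 reads, and the summits lay 23 bp apart at the BCL2L12 start. V2084D shSTUB1 replicate 1 had a separate peak 643 bp away, so this gene end was not without a peak in the hairpin cells. The next region (chr19:48391282-48391772) lay inside KDELR1, the Golgi receptor that returns escaped chaperones to the endoplasmic reticulum, over a promoter window 1896 bp from the nearest gene end. KDELR1 had folds of 6.98 and 7.28 on 11 and 21 reads, and the nearest peak of the 4 other libraries was 8043 bp away. Among the top 20, no more than 1 region had a higher fold in either library, and the KDELR1 summits lay 30 bp apart.

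A region among the top 20 covered the divergent starts of CIAPIN1, an assembly factor for cytosolic iron-sulfur proteins, and COQ9, needed for coenzyme Q synthesis (chr16:57447343-57447841). Folds were 5.65 and 7.41 in V2084D replicates 1 and 2, on 6 and 11 reads, and no other library had a gene-end peak at either gene. Its summits lay 257 bp apart.

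LOXL1, which crosslinks elastin, had a region at its start (chr15:73927454-73928144), with folds of 5.31 and 6.91 on 11 and 24 reads, and the nearest other peak was 44792 bp away. CALD1, which encodes the actin-binding caldesmon, had a region over a promoter window inside the gene (chr7:134891194-134891725), with folds of 5.49 and 7.28 on 9 and 14 reads. SPOCK3, an extracellular proteoglycan, had a region across 3 overlapping promoter windows (chr4:167234012-167234863), with folds of 6.62 and 6.13 on 8 and 12 reads. None of the 4 other libraries had a peak within 10000 bp of these 3 regions. FGD3, an exchange factor for the GTPase CDC42, had folds of 6.82 and 6.08, yet a peak of another library lay 144 bp from its region.

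RPS2, a protein of the small ribosomal subunit, had the highest −log10 q of the set in replicate 1 (6.78), with folds of 6.20 and 4.18 on 16 and 19 reads (chr16:1964827-1965074). MINDY3, a deubiquitinase, had folds of 6.10 and 5.43 on 9 and 13 reads at its start (chr10:15860373-15860620), with summits 1 bp apart and the nearest other peak 134427 bp away. Among the remaining top regions, TYW1B, ITPRIPL1, ANKRD50 and DNAH14 had a peak of another library 209, 40, 281 and 88 bp away. STYK1, POPDC3, SSC4D, SLC37A1, TBC1D14, ZNF184 and LOC124903671 had the nearest one 2653 to 55723 bp away. The top 20 thus hold both isolated regions and regions beside a peak of another library.

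Of 19 gene lists, 7 had a V2084D-only region at a gene end or at the nearest gene within 50 kb, 15 regions in all (5.38%, against 3.68% of all regions). YAP and TEAD targets had 5 regions (1.79%, against 0.284% of all regions) and the TGF-beta pathway 4 (1.43%, against 0.301%). The V2084D shSTUB1 pair, with as many private regions, had 1 and 0. The counts are small, the lists were drawn up with earlier results of these data known, and no test of the lists was made.

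Among YAP and TEAD targets, CCN2, a secreted matricellular protein, had a region at its promoter (chr6:131951325-131951622) with folds of 5.36 and 4.63 on 8 and 9 reads. F3, tissue factor of the clotting cascade, had folds of 4.12 and 4.96 on 6 and 11 reads at its start (chr1:94541187-94541800). Neither gene lacked peaks at its ends in shSTUB1 cells: V2084D shSTUB1 replicate 1 had one 99 bp from the CCN2 region, and both shSTUB1 libraries had one at F3, 425 and 107 bp away. PTPN14, a phosphatase that restrains YAP, had folds of 4.41 and 5.10 with a peak of V2084D shSTUB1 replicate 2 136 bp away. DOCK5, a RAC activator, and AMOTL2, an angiomotin that binds YAP, had folds of 4.89 and 5.15 and of 4.48 and 6.34, with no other peak within 10000 bp. AMOTL2 lay 46616 bp from its region.

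In the TGF-beta list, ACVR2A and ACVR1, activin-family receptors of type II and type I, had folds of 4.49 and 6.54 and of 5.0 and 4.95. The ACVR2A region (chr2:147843890-147844337) was 175711 bp from the nearest other peak, whereas the ACVR1 region (chr2:157876592-157876872) was 79 bp from one of V2084D shSTUB1 replicate 1. ID2, an inhibitor of basic helix-loop-helix factors, had folds of 4.2 and 3.05 on 11 and 15 reads at its start (chr2:8681886-8682215), and no other library had a gene-end peak at ID2. LOXL1, described above, is the fourth. Levels at these receptors rest on 6 to 13 reads per summit.

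Chaperones and STUB1 partners had 2 regions (0.717%, against 0.201% of all regions and 0.356% of those with both V2084D peaks), and the shSTUB1 pair had 0. FKBP4, an HSP90 cochaperone, had folds of 4.55 and 5.31 on 6 and 11 reads (chr12:2794762-2795077), and V2084D shSTUB1 replicate 1 had a peak 534 bp away. STIP1, which bridges HSP70 and HSP90, had folds of 5.19 and 4.82 on 7 and 7 reads, but that region (chr11:64204520-64204972) lay at the far end of STIP1, by the start of FERMT3, an integrin activator. Every one of the 6 libraries had a peak at an end of STIP1, so the V2084D-only region there was a second site. Single regions, 0.358% of the 279, came from p53 targets (TNFRSF10B, a death receptor, folds 4.12 and 4.21), the DNA damage response (PMS2, a mismatch repair protein, 4.0 and 4.55), chromatin regulators (NSD1, a histone methyltransferase, 4.55 and 4.38) and ribosomal proteins (RPS2). Over all regions these lists held 0.135%, 0.163%, 0.284% and 0.246% in that order, so a single region is close to the background. The other 12 lists had none, among them SWI/SNF subunits, the proteasome, ubiquitin ligases, AP-1 factors and the 2 hepatocyte lists. Each of the 12 held only 0.104% to 0.305% of all regions, under 1 region in 279, so nothing is read from their zeros.

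Further genes, chosen after their values were seen to show the range of functions, included secretory-pathway and liver genes. COPB1, a coat protein of Golgi vesicles, had folds of 5.71 and 6.45 on 7 and 11 reads, and GOLPH3, a Golgi adaptor, had 5.88 and 5.47 on 9 and 13 reads, with no gene-end peak at either in the 4 other libraries. PER3, a circadian clock repressor, had folds of 5.65 and 6.55 and the nearest other peak 176948 bp away. PDK4, which restrains pyruvate dehydrogenase during fasting, had 5.47 and 4.55 on 6 and 7 reads. IL6R, the interleukin receptor of the hepatic acute phase, had 4.49 and 4.50, and V2084D shSTUB1 replicate 1 had a peak 388 bp away. THRB, the thyroid hormone receptor of liver, and ABCA1, the cholesterol exporter, held regions inside the gene with folds of 5.08 and 5.07 and of 4.05 and 5.38.

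The gene ends of the 110 regions belong to 125 genes, and at 84 of these no library outside V2084D had a gene-end peak. The rule leaves no other peak in these regions, so a gene with no further region at its ends is counted by construction. No such count was made for genes at other private pairs, so the 84 are not read as particular to V2084D. The other 41 had one in at least 1 of the 4 libraries, 18 of them in both shSTUB1 libraries and 3 in both WT libraries. AJM1, SCAMP2 and STIP1 had one in all 4. EBF2, an early B cell factor that also acts in fat cells, held 2 V2084D-only regions inside the gene, with folds of 5.0 and 4.93 at one and 4.48 and 5.22 at the other. GPX6, a glutathione peroxidase, was the nearest gene of 2 regions that lay 15201 bp apart.

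Distances to peaks of other libraries show how isolated the regions were. The nearest peak lay at a median of 28890 bp in V2084D shSTUB1 replicate 1, 47466 bp in V2084D shSTUB1 replicate 2, 69292 bp in WT replicate 1 and 97557 bp in WT replicate 2. Within 1000 bp, a peak was found beside 46, 31, 18 and 9 of the 279 regions in the same libraries. At least 1 shSTUB1 library had one beside 61 regions, at least 1 WT library beside 24, and any of the 4 beside 69 (24.7%). This order follows the number of summits per library, so list length and condition cannot be told apart here.

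**Figure D5:**
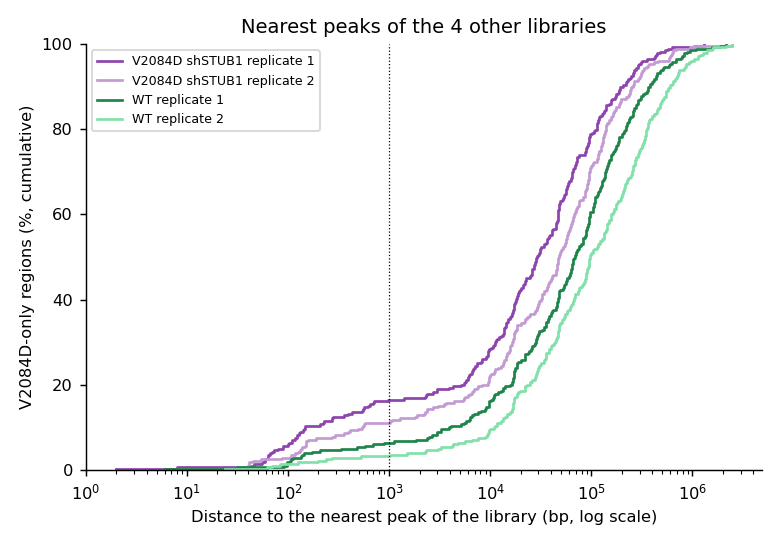
Cumulative share of the 279 V2084D-only regions (%) by distance to the nearest peak (bp, log axis) of each of the 4 other libraries; the dotted line marks 1000 bp. Medians run from 28890 bp in V2084D shSTUB1 replicate 1 to 97557 bp in WT replicate 2.

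The edge of the selection is given by the weakest V2084D-only regions and by the nearest regions outside it. Lowest in the ranking were regions 346329 bp from NFE2L3 (folds 3.39 and 3.79 in V2084D replicates 1 and 2), 10959 bp from SRSF4 (3.8 and 3.70), at B3GNT4 and LRRC43 (3.68 and 3.31), inside SLC43A1 (3.8 and 3.30) and 2121300 bp from EMB (3.62 and 3.17), each on 3 to 7 reads. Just outside were regions with both V2084D peaks and 1 weak peak elsewhere. CCDC28B had V2084D folds of 3.53 and 3.74 and a V2084D shSTUB1 replicate 2 peak with −log10 q of 1.32, on 10 reads. LRFN5, 651890 bp from its region, had folds of 5.07 and 4.55 against a shSTUB1 replicate 1 peak of 1.33. PHF6 had 4.17 and 7.65 against a shSTUB1 replicate 2 peak of 1.36, and NIN had 4.0 and 4.40 against a shSTUB1 replicate 1 peak of 1.40. CARNS1 had 6.90 and 4.55 against a WT replicate 2 peak of 1.38. A single weak call of 4 to 10 reads kept these 5 out.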

How the data were processed

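ATAC-seq was run on 6 libraries, 2 per group, grouped by their titles. The submitters' processing notes name Trimmomatic, Bowtie2, SAMtools, Picard, MACS2, bedtools, deepTools and hg38; their versions and settings, and whether reads were shifted for transposase binding, were not given in the sources used. The deposited lists hold 1 row per summit, called per library. Each deposited fold is a ratio to local background, and the authors' p-value and q-value of each summit are deposited as −log10; the deposited score was not used.

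Peaks overlapping by 1 bp were merged on chromosomes 1 to 22 and X, which left out 2.07% to 2.60% of summits per library. A library's strongest summit in a region gave its fold, and the 1-based positions are hg38. Reads at a summit were recovered from fold, with a pseudocount of 1, and the Poisson p-value, within 0.001 of −log10 p (99.99% to 100% of summits per library); depth was the lowest background. Read totals were not used here. Genes, promoter windows (250 bases before to 50 after a start) and sequences came from RefSeq tables on GRCh38.p14. No genome was used here, so exon, intron and UTR were not determined. Intervals are exact Clopper-Pearson at 95% and cover counting error only, since reads and neighbouring regions are not independent molecules. No p-value was computed. The members, gene lists and motifs were chosen with earlier results of these data known. Named regions are the 20 highest and 5 lowest by mean within-list percentile of −log10 q, the 3 widest, those of genes on the 19 lists, genes with 2 or more regions and the 5 nearest outside; other names are marked. The merging and read recovery were tested on simulated data. Software was Python 3.11.15, numpy 2.4.6, pandas 2.3.3, scipy 1.17.1 and matplotlib 3.10.9.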

Additional observations from a re-analysis of the deposited data

How the results depend on the processing

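The size and makeup of the V2084D-only set depended on the processing. Requiring a −log10 q of 5 or more in every list gave 159 regions, a gene-end share of 63.5% and median folds of 6.72 and 6.45 in V2084D replicates 1 and 2, and trimming all lists to the 7234 strongest summits gave 152 regions, 69.1% and folds of 5.58 and 7.54. Each kept 11 of the 279 regions, so 148 and 141 of theirs were other regions whose peaks elsewhere fell under the stricter limit. Windows of 200 bp at summits gave 535 regions, 56.6% and folds of 4.93 and 5.15, with 220 of the 279 kept. Asking a peak to cover 50% of a region gave 348 regions, 49.7% and folds of 4.90 and 5.49, with 192 kept. Asking for no other peak within 1000 bp left 210 regions and a share of 37.1%. No region met the rule under all 5 of these settings, and KDELR1, RPS2, SSC4D, TBC1D14 and a region inside NR2F2 met it under 4. Leaving out 1 library gave 304 to 7390 regions (7390 without V2084D replicate 1, 856 without V2084D replicate 2, 701 without V2084D shSTUB1 replicate 1 and 425 without V2084D shSTUB1 replicate 2) and gene-end shares of 27.2% to 48.8%. Gene-end windows of 500 and 2000 bp gave 34.8% and 44.4%. Which of these settings is closest to the accessibility in the cells was not tested. Summits of 3 to 39 reads limit every absence to no call at this depth. No paired analysis was possible because the results come from no test.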
